A study of Mus musculus with 2 samples.

Results

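The brush border peptidases are 9 genes for enzymes of the apical membrane of the enterocyte, the absorptive cell of the gut: Anpep, Enpep, Dpp4, Mme, Ace, Mep1a, Mep1b, Naaladl1 and Xpnpep2. They were chosen by name, and all 9 were found among the 22756 gene rows of the 2 count files, with reads in both libraries. The files hold counts of ribosome footprints, the mRNA pieces that ribosomes shield from nuclease, from ileum of C57BL/6 mice of wild type genotype at postnatal day 21, an age near weaning. One group was fed and the other was fasted for 48 h, with 1 library each, and the sources used here do not say how many animals were pooled in a library. No mRNA library was analysed here, so a footprint count cannot be split into mRNA amount and translation, and in whole tissue fewer cells of a type and less RNA per cell cannot be told apart.

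Proteins in the gut are cut by pancreatic proteases into short peptides, and the brush border peptidases finish the work at the cell surface. Aminopeptidases take residues from the amino end, dipeptidyl peptidases take them in pairs, and endopeptidases such as neprilysin and the meprins cut inside the chain. The products enter the enterocyte as dipeptides and tripeptides through PEPT1 (Slc15a1) or as free amino acids through carriers such as Slc6a19, and cytosolic peptidases split what is left. Several of the same enzymes also cut signalling peptides, among them angiotensins, incretins and enkephalins.

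The fed library held 5558620 gene counts and the fasted library 5434252. Ratios are fasted over fed, scaled by TMM, which sets the typical gene near a ratio of 1. Plain CPM, which divides by total gene counts only, lowered every log2 ratio by 0.32 and is given beside it. A gene was called higher or lower at 1.5-fold or more with a 95% exact interval excluding 1, which covers counting error only. There is no replicate, no test between conditions and no p-value. The ileal markers Fabp6 (28873 fed and 16615 fasted counts) and Slc10a2 (2458 and 2390), a bile acid binding protein and the apical bile acid transporter, were detected in both libraries. Their log2 ratios with TMM were -0.44 and 0.31, so they did not move together. Other ileal markers examined are not reported here.

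Fasting came with more footprints on 5 of the 9 peptidase genes, which were called higher, while 0 were called lower and 4 passed neither way. The 5 were Mme, Xpnpep2, Enpep, Mep1a and Dpp4, at 3.29, 3.13, 2.21, 1.92 and 1.82 fold. The rest, Naaladl1, Mep1b, Anpep and Ace, lay between 1.36 and 1.04 fold. Over all 11333 measured genes, 17.3% were higher by this rule and 17.3% lower. Among the 466 genes with at least the 3410 counts of Mme, the member with fewest, the higher share was 36.5% (24.2% with plain CPM), so the count of 5 in 9 is to be read against that share. With plain CPM 4 members were higher and 0 lower, against 8.86% and 31.2% of all measured genes, the call on Dpp4 being lost. The median log2 ratio of the 9 was 0.87, beside 0.0028 for all measured genes, and with plain CPM 0.54 beside -0.32.

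**Figure D1:**
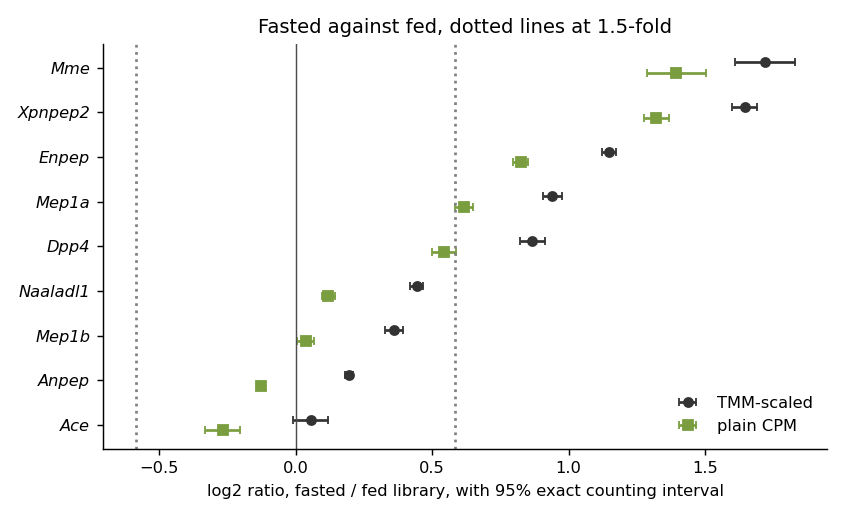
Fasted/fed log2 ratio of each peptidase gene (x axis) with 95% exact counting intervals, 1 library per group; circles are TMM-scaled, squares plain CPM, dotted lines 1.5-fold. Mme and Xpnpep2 stand farthest right under both scalings, and Anpep and Ace lie right of 0 with TMM but left of it with plain CPM.

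The members covered a wide range of levels. Per kb of coding sequence, the fed library ran from 4617 CPM (counts scaled to total gene counts) for Anpep to 76.4 for Mme, a 60.5-fold span, and the fasted library from 4228 for Anpep to 167 for Ace, a 25.4-fold span. In both libraries 5 members were among the 100 measured genes with the highest level per kb. The fed order was Anpep, Naaladl1 (2371), Mep1b (1291), Enpep (1125), Mep1a (897), Dpp4 (556), Xpnpep2 (462), Ace (200.4) and Mme. In the fasted library it was Anpep, Naaladl1 (2578), Enpep (1992), Mep1a (1375), Mep1b (1324), Xpnpep2 (1154), Dpp4 (812), Mme (200.8) and Ace. No 2 neighbours in either order had overlapping 95% Poisson intervals, which again hold counting error alone. Between the libraries Xpnpep2 passed Dpp4 and Mme passed Ace. Enpep and Mep1a also passed Mep1b, but only with the longest coding sequence of each gene as its length. With the mean length over a gene's coding transcripts, Mep1b stood next after Naaladl1 in both libraries (2184 fed and 2241 fasted), Anpep was at 8091 and 7409 and Mme at 139 and 366, and the fed order was unchanged.

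**Figure D2:**
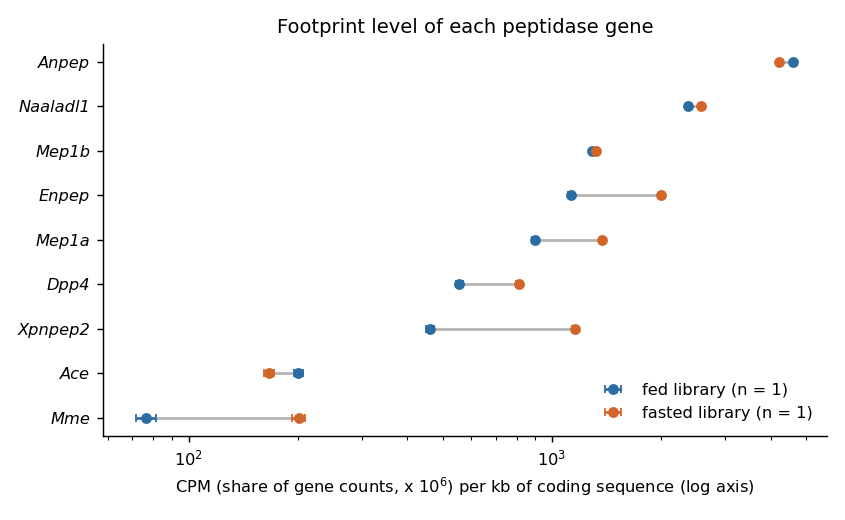
Level of each peptidase gene, in CPM per kb of coding sequence (log x axis, not TMM-scaled), with 95% Poisson intervals, 1 library per group. The horizontal gap is wide for Mme (76.4 to 200.8) and Xpnpep2 (462 to 1154) and narrow for Mep1b (1291 to 1324).

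The 2 zinc aminopeptidases of the M1 family differed from each other. Anpep encodes aminopeptidase N, which removes neutral residues and is among the most abundant proteins of the brush border (ENSMUSG00000039062, mm10 chromosome 7, 79821803 to 79861059, minus strand). It had 74373 fed and 66580 fasted counts, the 4th and 6th highest of any gene. These are near-equal counts, and the direction depended on scaling, at a log2 ratio of 0.20 (0.18 to 0.21) with TMM and -0.13 (-0.14 to -0.11) with plain CPM. Enpep encodes aminopeptidase A, which removes acidic residues and converts angiotensin II to angiotensin III (ENSMUSG00000028024, chromosome 3, 129269175 to 129332720, minus strand). It had 17728 fed and 30691 fasted counts, a log2 ratio of 1.15 (1.12 to 1.17; 0.82 with plain CPM), higher than 93.9% of measured genes. The fasted/fed ratio of Enpep was 1.93 times that of Anpep (95% exact interval 1.89 to 1.98), a comparison within libraries that no scaling can change.

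The 2 members that act beside proline were both higher in the fasted library. Xpnpep2 encodes a membrane-bound aminopeptidase P, which frees the first residue where proline follows it (ENSMUSG00000037005, chromosome X, 48108725 to 48136981, plus strand). Its counts were 5706 fed and 13941 fasted, a log2 ratio of 1.64 (1.60 to 1.69; 1.32 with plain CPM), and it moved from 7th to 6th in the order of levels. Dpp4 encodes dipeptidyl peptidase 4, which removes a pair of residues ending in proline or alanine and inactivates the incretins GLP-1 and GIP (ENSMUSG00000035000, chromosome 2, 62330073 to 62412231, minus strand). It had 7051 fed and 10056 fasted counts, a log2 ratio of 0.87 (0.82 to 0.91), and with plain CPM 0.54 (0.50 to 0.59), under 1.5-fold. The ratio of Xpnpep2 was 1.71 times that of Dpp4 (1.64 to 1.79). Of 10 genes for proline-directed peptidases in any compartment, a group made after their values were seen, 4 were higher, 0 lower and 6 neither with TMM. Their median log2 ratio was 0.056, so the group as a whole hardly moved. Over all measured genes 17.3% were higher and 17.3% lower. With plain CPM 2 of the 10 were higher and 2, Dpp9 and Prcp, lower. Beside Xpnpep2 and Dpp4, the higher ones with TMM were Pepd and Xpnpep1. Pepd, the cytosolic prolidase that splits dipeptides ending in proline, had 4430 and 7404 counts (2.14-fold). Xpnpep1, the soluble aminopeptidase P, had 5078 and 6324 counts (log2 ratio 0.67, and 0.35 with plain CPM).

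Mme and Ace lay at opposite ends of the 9 ratios. Mme encodes neprilysin, a zinc endopeptidase that cuts enkephalins, tachykinins and natriuretic peptides (ENSMUSG00000027820, chromosome 3, 63241537 to 63386030, plus strand). It had 955 fed and 2455 fasted counts, the highest ratio of the members (log2 ratio 1.72, 1.61 to 1.83; 1.39 with plain CPM), above that of 97.6% of measured genes. Ace encodes angiotensin-converting enzyme, which takes dipeptides from the carboxyl end and turns angiotensin I into angiotensin II (ENSMUSG00000020681, chromosome 11, 105967945 to 105989964, plus strand). It had 4384 fed and 3562 fasted counts, at a log2 ratio of 0.056 (-0.0083 to 0.12) with TMM, not distinguishable from 1 at this depth, and -0.27 (-0.33 to -0.20) with plain CPM. The ratio of Mme was 3.16 times that of Ace (2.90 to 3.45), the widest gap of any pair of members. Ratios of Mme and Xpnpep2 could not be told apart (1.05, interval 0.97 to 1.14).

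The meprins, which share the astacin type of catalytic domain and form disulfide-linked oligomers, also differed. Mep1a, for meprin alpha (ENSMUSG00000023914, chromosome 17, 43474324 to 43502812, minus strand), had 11365 fed and 17037 fasted counts, a log2 ratio of 0.94 (0.91 to 0.97; 0.62, or 1.53-fold, with plain CPM). Mep1b, for meprin beta, which is known to cleave the mucin Muc2 in mouse small intestine (ENSMUSG00000024313, chromosome 18, 21061923 to 21100199, plus strand), had 15153 and 15196 counts. Its log2 ratio was 0.36 (0.33 to 0.39) with TMM and 0.037 (0.0042 to 0.069) with plain CPM, neither reaching 1.5-fold. The ratio of Mep1a was 1.49 times that of Mep1b (1.45 to 1.54). Footprints of Mep1b were more numerous per kb in the fed library (1291 against 897) and slightly fewer in the fasted one (1324 against 1375). With mean coding lengths they were more numerous in the fasted library too (2241 against 1387).

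Naaladl1 encodes an intestinal peptidase related to glutamate carboxypeptidase II, known from rat and human as an ileal enzyme (ENSMUSG00000054999, chromosome 19, 6105782 to 6115792, plus strand). It was second in level in both libraries, with 29459 fed and 31310 fasted counts. The log2 ratio was 0.44 (0.42 to 0.47; 0.12 with plain CPM). Folh1, the gene of glutamate carboxypeptidase II itself, had 0 fed counts, which allows up to 0.540 CPM, and 4 fasted counts.

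Over all 36 pairs of members, 35 had ratios that differed beyond counting error and 20 differed by 1.5-fold or more. The pair that did not was Mme and Xpnpep2. Dpp4 and Mep1a, and Mep1b and Naaladl1, were closest after that, at 1.05 (1.01 to 1.09) and 1.06 (1.03 to 1.09). Since intervals at this depth hold no difference between animals, small gaps such as these have no replicate check.

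**Figure D3:**
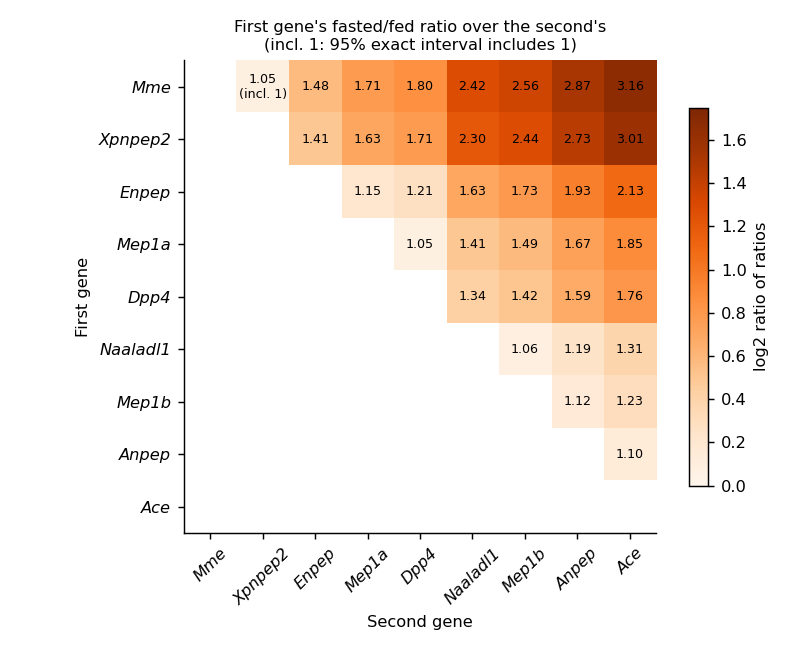
Fasted/fed ratio of the gene in each row divided by that of the gene in each column, over all 36 pairs, with the colour giving its log2 value, 1 library per group. Values run from 1.05 for Mme over Xpnpep2, whose interval includes 1, to 3.16 for Mme over Ace.

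Summed over the 9 genes, 166174 fed and 190828 fasted counts were assigned, which was 2.99% (95% exact interval 2.975% to 3.004%) and 3.51% (3.496% to 3.527%) of all gene counts. Anpep alone made up 44.8% of the peptidase footprints in the fed library and 34.9% in the fasted one. Enpep went from 10.7% to 16.1%, Xpnpep2 from 3.43% to 7.31% and Mme from 0.575% to 1.29%, while Ace went from 2.64% to 1.87%. Naaladl1 held 17.7% and 16.4%. Without Anpep the summed share was 1.65% and 2.29%.

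**Figure D4:**
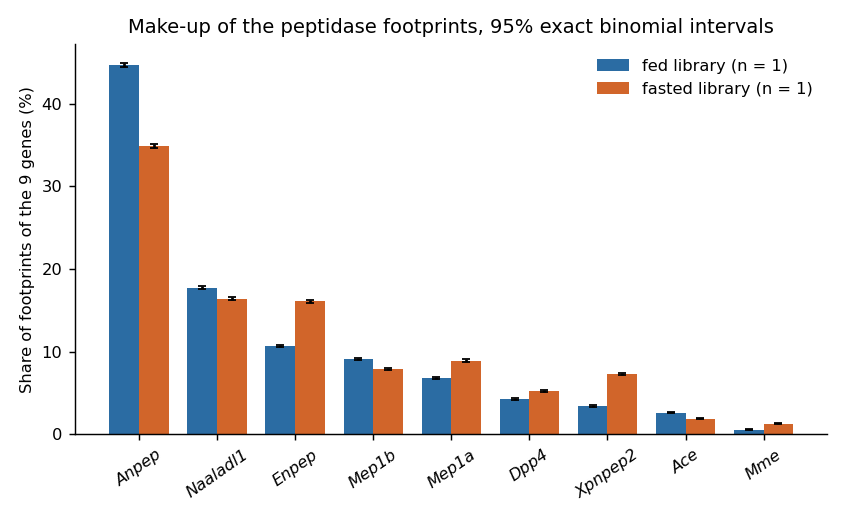
Share of the footprints of the 9 genes that each gene took (y axis, percent), with 95% exact binomial intervals, for the fed and the fasted library (1 each). Anpep falls from 44.8% to 34.9%, and Enpep, Mep1a, Dpp4, Xpnpep2 and Mme take larger shares in the fasted library.

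The coding sequences of the 9 genes ran from 2112 bases (Mep1b) to 3936 (Ace), with a median of 2280 beside 1458 for all measured genes, and 41.5% (Mme) to 57.0% (Naaladl1) of their bases were G or C. Of 28-base stretches, none of those in 8 of the coding sequences recurred in another annotated transcript on either strand, so these members had no close copy to share reads with. In Ace 6.27% recurred, all in the overlapping antisense gene Gm11651, which had no read in either file. Dpp4 overlaps the antisense gene Gm13561, which had none either, and whether the counting used strand is not given.

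RefSeq promoter windows (GRCm38.p6, 250 bases before to 50 after a start) were held for 7 members in 10 windows. They were searched on both strands for the letters bound by families of factors that act in intestinal epithelium. For CDX factors the letters searched were TTTATNG, found in 2 of the 10 windows and in 10.9% of all 32851 windows of the same length. The HNF4 letters, CAAAGTCC, were in 1 window and in 1.42% of all windows. For GATA factors, AGATAA was in 1 window and in 11.2%. The 3 windows with a match are printed 5′ to 3′ with matches in capitals, beside that of Xpnpep2, the member with 1 window and the highest ratio, which had no match. The windows of Dpp4 (chr2:62412182-62412481, minus strand) and Mep1a (chr17:43502724-43503023, minus strand) hold the CDX letters, read in reverse complement in Dpp4, where the GATA letters follow nearer the start. Relative to the start, the CDX match begins at -228 in Dpp4 and at 14, past the start, in Mep1a. The window of Ace (chr11:105967698-105967997, plus strand) holds the HNF4 letters in reverse complement, and that of Xpnpep2 is chrX:48108475-48108774, plus strand.
Dpp4: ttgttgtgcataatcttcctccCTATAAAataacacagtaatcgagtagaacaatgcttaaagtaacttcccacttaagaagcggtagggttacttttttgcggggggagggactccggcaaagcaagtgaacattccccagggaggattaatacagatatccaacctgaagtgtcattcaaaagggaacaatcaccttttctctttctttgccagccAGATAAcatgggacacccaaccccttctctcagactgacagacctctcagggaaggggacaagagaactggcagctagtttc
Mep1a: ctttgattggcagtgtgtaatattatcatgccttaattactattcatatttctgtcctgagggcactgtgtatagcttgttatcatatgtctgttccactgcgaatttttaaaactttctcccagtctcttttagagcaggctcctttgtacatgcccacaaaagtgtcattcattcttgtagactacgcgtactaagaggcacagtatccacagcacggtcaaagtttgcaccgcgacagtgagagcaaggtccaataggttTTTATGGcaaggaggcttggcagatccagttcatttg
Ace: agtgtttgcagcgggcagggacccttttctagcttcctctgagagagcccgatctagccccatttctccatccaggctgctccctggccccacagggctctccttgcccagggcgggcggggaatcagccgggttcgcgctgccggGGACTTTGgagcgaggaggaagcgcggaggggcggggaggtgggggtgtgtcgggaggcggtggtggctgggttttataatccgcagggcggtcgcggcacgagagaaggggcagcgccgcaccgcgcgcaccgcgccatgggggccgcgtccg
Xpnpep2: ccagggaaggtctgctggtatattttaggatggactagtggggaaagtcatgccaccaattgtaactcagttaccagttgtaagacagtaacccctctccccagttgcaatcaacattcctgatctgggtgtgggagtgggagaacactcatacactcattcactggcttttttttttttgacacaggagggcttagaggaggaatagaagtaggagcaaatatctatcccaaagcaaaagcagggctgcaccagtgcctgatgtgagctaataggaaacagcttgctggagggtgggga
Such matches describe letters in these windows and not binding. The genes for the factors went in different directions. Hnf4g (2779 fed and 6229 fasted counts, log2 ratio 1.52) and Gata6 (439 and 1243, 1.86) were higher, Hnf4a was lower (2790 and 1345, -0.70), and Cdx2 was neither (704 and 767, 0.48). Of the 12 factors listed, 7 had a higher call, 1 a lower one and 4 neither (5, 1 and 6 with plain CPM), the median log2 ratio being 0.76. Over all measured genes 17.3% were higher and 17.3% lower with TMM, and 8.86% and 31.2% with plain CPM. Those shares are the background for the list counts that follow too.

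Other peptidases of the cell surface went in both directions. Of 7 measured among 12 such genes in the files, 4 had a higher call, 1 a lower one and 2 neither (2, 1 and 4 with plain CPM), with a median log2 ratio of 0.73. Cpm, carboxypeptidase M, was higher (151 and 288 counts, 1.29), as were Ggt1, gamma-glutamyltransferase (1386 and 1831, 0.76), and Dpep1, a dipeptidase that splits cysteinylglycine (3722 and 4837, 0.73), the last pair under 1.5-fold with plain CPM. The lower one was Naalad2, a relative of Folh1, with 78 fed and 27 fasted counts (-1.17).

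Inside the cell the picture was mixed. Of 20 measured intracellular peptidases, 4 had a higher call, 3 a lower one and 13 neither, the median log2 ratio being -0.048, and with plain CPM 2 were higher and 7 lower. Lap3, leucine aminopeptidase, had 4313 fed and 7928 fasted counts (log2 ratio 1.23, 1.18 to 1.29), and with Pepd it was the highest by interval. Rnpep, aminopeptidase B, had 1868 and 437 counts (-1.74, -1.89 to -1.59), and Npepps, the puromycin-sensitive aminopeptidase, 1360 and 689 (-0.63, -0.76 to -0.49). Cndp2, a cytosolic dipeptidase chosen after its value was seen, had 8003 and 10540 counts (0.75; 0.43 with plain CPM).

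Genes for carriers of peptides and amino acids, a list not limited to uptake from the gut lumen, were mostly higher. Of 12 measured peptide and amino acid carrier genes, 9 had a higher call, 0 a lower one and 3 neither (7, 0 and 5 with plain CPM), the median log2 ratio being 0.99. The higher share was 17.3% over all measured genes and 36.5% among those with at least the counts of Mme. Slc15a1 had 7930 fed and 21118 fasted counts (log2 ratio 1.77, 1.73 to 1.81), a ratio 2.97 times that of Anpep (2.89 to 3.06). Slc6a19, the neutral amino acid carrier, had 6319 and 17974 counts (1.86), and Slc7a8, a basolateral exchanger, 955 and 3512 (2.23). The pair that forms the cystine and dibasic amino acid carrier, Slc3a1 (4327 and 3579 counts) and Slc7a9 (2314 and 2037), had log2 ratios of 0.082 and 0.17, which were -0.24 and -0.15 with plain CPM.

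The sugar-cutting enzymes of the same membrane stood above most of the peptidases. All 4 glycosidase genes were higher, beside 36.5% of the genes with at least the counts of Mme. Their summed ratio was 2.19 times that of the 9 peptidases (2.17 to 2.21). Against Sis, sucrase-isomaltase, whose counts went from 47401 to 112004, only Mme and Xpnpep2 kept pace: the ratio of Sis was 0.919 times that of Mme (0.851 to 0.992) and 0.967 times that of Xpnpep2 (0.9359 to 0.9993), but 1.36 to 2.91 times that of the other 7.

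**Figure D5:**
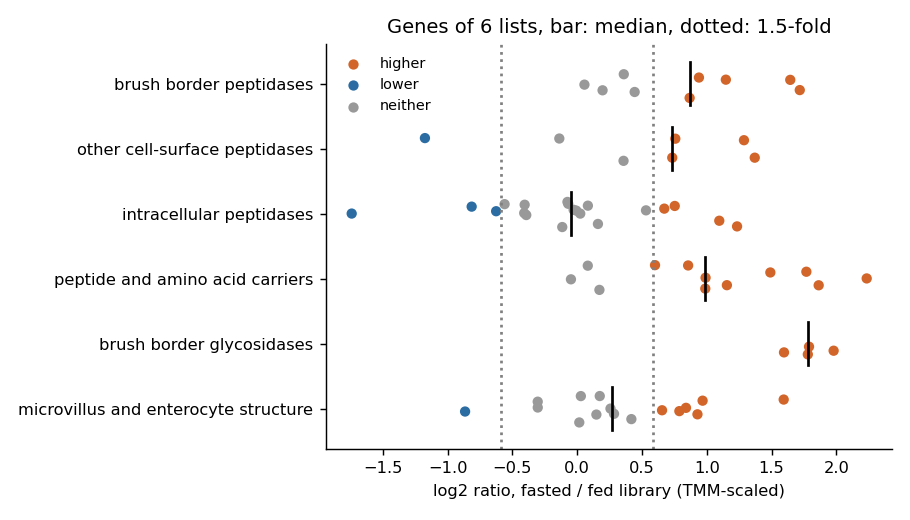
Fasted/fed log2 ratio (x axis, TMM-scaled) of each measured gene of 6 lists, 1 library per group; colour gives the call, black bars the median and dotted lines 1.5-fold. The 9 peptidases spread between 0.056 and 1.72, while the glycosidases all lie above 1.5.

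Structural genes of the enterocyte and microvillus went in both directions. Of 16, 6 had a higher call, 1 a lower one and 9 neither (3, 3 and 10 with plain CPM), the median log2 ratio being 0.27. Their summed share of gene counts was 3.22% fed and 3.38% fasted. Against Vil1, villin, which bundles the actin of microvilli (22303 and 27446 counts, itself 1.57-fold higher with TMM and under 1.5-fold with plain CPM), the ratio was 2.09 times as high for Mme (1.93 to 2.26), 1.99 for Xpnpep2, 1.41 for Enpep, 1.22 for Mep1a and 1.16 for Dpp4. It was 0.864 for Naaladl1, 0.815 for Mep1b, 0.727 for Anpep and 0.660 for Ace (0.629 to 0.693). Scaling to the sum of this list, in place of TMM, left Mme, Xpnpep2 and Enpep higher and took Mep1a (log2 ratio 0.54) and Dpp4 (0.47) under 1.5-fold.

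Some members are also made outside the epithelium: Ace in endothelium, Dpp4 in T cells and fibroblasts, Mme in stromal cells, and Anpep in myeloid cells and fibroblasts. Endothelial markers had 3 of 8 higher and 0 lower (1 and 0 with plain CPM), and their sum was 360 CPM fed and 418 CPM fasted. Fibroblast markers had 2 of 7 higher (Dcn and Pdgfra) and 5 lower (0 and 5 with plain CPM), with sums of 5266 and 1701 CPM. The sums were 64.4 and 46.0 CPM for T cell markers (0 of 7 higher, 1 lower; 0 and 3 with plain CPM) and 449 and 290 CPM for myeloid markers (0 of 6 higher, 1 lower; 0 and 4 with plain CPM). Pericyte and smooth muscle markers had 0 of 9 higher and 5 lower, or 7 lower with plain CPM (5332 and 2488 CPM), and B and plasma cell markers 0 of 6 higher and 6 lower under both scalings (913 and 334 CPM). None of these genes was at 0 in either library, and their part in the peptidase ratios was not tested.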

How the data were processed

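Ribosome footprints from mouse ileum were counted in 1 fed and 1 fasted library. Each deposited file gives raw, unnormalised read counts by gene symbol. Per the submitters' processing notes, the tools were HTSeq, STAR, Bowtie 1.1.2 and cutadapt and the genome build was mm10, without their roles. The sources used here do not give the annotation counted or the strand setting. Entries given as NA were read as 0 counts, since genes at NA in 1 library had a median of 1 count in the other. Totals of unassigned reads were left out of library sizes: reads overlapping no feature were 13.4% of the fed and 21.0% of the fasted file, reads aligned to several places 41.4% and 39.9%, and ambiguous reads 0.209% and 0.196%. The 24 symbols turned into dates stayed in the totals.

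TMM factors came from edgeR 4.0.16 (R 4.3.3) and median-ratio factors from DESeq2 1.42.0, both for scaling only. Ratios carry 95% Clopper-Pearson intervals on the split of a gene's counts, and pairs of genes carry exact conditional intervals of the odds ratio (scipy 1.17.1). Genes needed 30 counts over both libraries. A count of 0 allows up to 3 counts. Medians used 0.5 added counts. The counting functions were tested on simulated Poisson counts, which hold no PCR duplicates and no difference between animals. That test checks the code and not the intervals for these libraries. Libraries went through PCR without molecular identifiers being described, so every interval and floor holds counting error alone. Coordinates, coding lengths and base composition are from GENCODE vM21 (GRCm38, the assembly of mm10), matched for 96.4% of rows. The longest coding sequence of a gene set its length.

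Members and lists were chosen with earlier results of these data known. All members are named; of other lists, any measured gene of lists up to 16 symbols may be named, and of longer ones the 2 highest and 2 lowest by the interval bound nearest to 1, with others marked as chosen after their values were seen. Some genes of the lists, though counted in them, and some motifs searched are not reported here. No search for genes of like pattern was made, since 2 libraries give 1 ratio per gene. Alternatives covered scaling, minimum count, fold threshold, interval and length.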

Additional observations from a re-analysis of the deposited data

How the results depend on the processing

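With 1 library per group, no replicate could be left out. No paired analysis was possible because each group has 1 library. Median-ratio and upper-quartile factors, TMM without the 20 most abundant genes, no minimum count, a minimum of 200 counts and a stricter interval level each left 5 members higher and 0 lower. The count of higher members was 3 with a 2-fold threshold and 3 when scaled to the microvillus and enterocyte structure list. Scaling to that list without keratins and Epcam, chosen after seeing the data, gave 2 higher and 1 lower. The higher ones were Mme and Xpnpep2 (log2 ratios 1.04 and 0.96), and the lower one was Ace (-0.63), called neither with TMM. Over all settings the log2 ratio of Anpep ranged from -0.49 to 0.20, of Mep1b from -0.32 to 0.36 and of Naaladl1 from -0.24 to 0.44.

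Of other cell-surface peptidases, 2 were higher with plain CPM, with the microvillus scaling and with 2-fold, and 0 lower with 200 counts. Of intracellular peptidases, 2 were higher with plain CPM, with the microvillus scaling and with 2-fold, while 7 were lower with plain CPM and with the microvillus scaling and 1 with 2-fold. Carriers had 5 higher with 2-fold. The summed share of the members was 1.34% fed and 2.14% fasted without the 20 most abundant genes, which include Anpep and Naaladl1 and leave both sums, and 1.65% and 2.29% without Anpep, chosen after seeing the data. With a stricter interval level, also chosen after seeing the data, 34 of 36 pairs excluded 1. Members had at least 955 counts in a library. Counting error left Ace unresolved from a ratio of 1 with TMM, and Mme from Xpnpep2. With plain CPM Ace was at a log2 ratio of -0.27 (-0.33 to -0.20). For every member the number of libraries was a limit.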
